A study of Mus musculus with 359 samples.

Results

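The 8 genes described here, Igfbp1, Pck1, G6pc, Tat, Ppargc1a, Irs2, Fbp1 and Pklr, mark the fasted or the fed state of the liver, and they were taken by name from the 24421 gene symbols of the 3 liver count tables. All 8 passed the filter on low counts at each day, among 12627 genes tested at day 2, 12836 at day 5 and 12904 at day 28. The livers came from female and male B6C3F1 mice, a hybrid laboratory strain, given 4-methylimidazole (4-MEI), a small heterocycle that forms when sugars are heated with ammonia. Gavage lasted 2 days, with vehicle or 50, 100, 200 or 300 mg/kg-d, and other mice received feed with 0, 150, 300, 1250 or 2500 ppm for 5 or 28 days. Each day, sex and dose had 6 libraries, which makes 30 groups and 180 liver libraries of the 359 libraries in the series. The series asks for the response to dose and time in both sexes. The sources used here do not give the age of the mice, the hour at which tissue was taken or whether food was withdrawn beforehand, and nothing but a library number separates the animals of a group.

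When food is withdrawn, insulin falls while glucagon and glucocorticoids rise, and the liver turns from storing glucose to making it. Glucagon acts through cyclic AMP and the factor CREB, insulin keeps the factor FOXO1 out of the nucleus, and glucocorticoids act through the receptor Nr3c1. The 8 genes are classic readouts of these 3 signals. Igfbp1 encodes a secreted protein that binds insulin-like growth factors and is repressed by insulin. Irs2 encodes the adapter that carries the insulin receptor's signal and is itself repressed by insulin. Ppargc1a encodes PGC-1alpha, the coactivator that switches on gluconeogenic genes. Pck1 (phosphoenolpyruvate carboxykinase), Fbp1 (fructose-1,6-bisphosphatase) and G6pc (the catalytic subunit of glucose-6-phosphatase) are the enzymes particular to gluconeogenesis, and Tat (tyrosine aminotransferase) feeds amino acid carbon into it under glucocorticoid control. Pklr, the pyruvate kinase of liver, runs the last step of glycolysis and is a gene of the fed state.

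The promoters of 4 of these genes are shown because they carry short matches to the binding letters of the cyclic AMP and insulin signals. All 8 genes were found in the RefSeq promoter table (build GRCm38.p6). Each sequence below is the 250 bases before RefSeq's transcription start, 5′ to 3′ on the gene's strand, with the matched letters in capitals. In Pck1 (chr2:173152823-173153072, plus strand) and Ppargc1a (chr5:51567726-51567975, minus strand) the capitals mark ACGTCA, the half-site of the cyclic AMP response element, whose first base lay 91 and 50 bases before the start.
Pck1: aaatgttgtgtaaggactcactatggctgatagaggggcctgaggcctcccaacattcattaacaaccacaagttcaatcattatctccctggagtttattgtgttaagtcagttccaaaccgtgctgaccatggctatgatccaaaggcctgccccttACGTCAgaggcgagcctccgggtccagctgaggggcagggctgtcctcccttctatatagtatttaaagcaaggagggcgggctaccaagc
Ppargc1a: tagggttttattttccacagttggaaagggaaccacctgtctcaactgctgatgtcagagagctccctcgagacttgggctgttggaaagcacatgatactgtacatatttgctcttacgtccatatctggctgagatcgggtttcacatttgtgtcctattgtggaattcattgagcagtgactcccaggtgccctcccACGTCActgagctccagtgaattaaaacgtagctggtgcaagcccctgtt
In Igfbp1 (chr11:7197537-7197786, plus strand) and G6pc (chr11:101367466-101367715, plus strand) the capitals mark CAAAACA, the core of the insulin response sequence bound by FOXO factors. In G6pc it was read on the other strand, as TGTTTTG, 174 bases before the start.
Igfbp1: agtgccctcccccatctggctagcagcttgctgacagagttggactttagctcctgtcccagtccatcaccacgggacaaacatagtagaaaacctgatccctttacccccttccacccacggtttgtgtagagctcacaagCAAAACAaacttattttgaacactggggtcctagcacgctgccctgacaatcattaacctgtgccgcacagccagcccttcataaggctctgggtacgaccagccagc
G6pc: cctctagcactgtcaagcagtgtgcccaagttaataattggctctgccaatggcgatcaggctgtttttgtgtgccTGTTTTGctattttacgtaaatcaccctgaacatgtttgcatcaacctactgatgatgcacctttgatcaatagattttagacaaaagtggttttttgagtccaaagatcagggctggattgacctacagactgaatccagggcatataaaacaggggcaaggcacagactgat
Irs2 also held CAAAACA, 37 bases before its start. Both strands of each promoter were searched and each of these 5 promoters held a match to 1 motif, so no matches overlapped. Of all 32851 promoters in the table, 6.47% held ACGTCA and 5.56% held CAAAACA. The glucocorticoid response element, searched as its palindromic consensus, was in 0.387% of all promoters and in 0 of the 8. These matches describe letters in a short window, and no binding was measured here.

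In the GRCm38 annotation the genes are on 6 chromosomes. Igfbp1 (chr11:7197782-7202546) and G6pc (chr11:101367561-101377903) are both on the plus strand of chromosome 11, and Tat (chr8:109990437-109999803, plus strand) and Irs2 (chr8:10984681-11008458, minus strand) are both on chromosome 8. Pck1 is at chr2:173153048-173159273 on the plus strand, Pklr at chr3:89136142-89146784 on the plus strand, Ppargc1a at chr5:51454250-51567726 on the minus strand and Fbp1 at chr13:62864753-62888282 on the minus strand.

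Levels are given as CPM, read counts relative to library size, scaled by the trimmed mean of M values (TMM). Library totals ran from 8457034 to 20405658 counts at day 2, from 11070867 to 22527309 at day 5 and from 10239848 to 18084863 at day 28. Divided by the length of the longest transcript, the 36 vehicle livers of all days gave Fbp1 a median level of 620 CPM per kilobase (lowest 423, highest 774), Pck1 557 (62.3 to 1440) and Tat 463 (195 to 968). The ranges of these 3 enzymes overlapped. G6pc followed at 80.4 CPM per kilobase (26.1 to 242) and Pklr at 68.5, also with overlapping ranges. Igfbp1 had a median level of 14.4 CPM per kilobase (2.88 to 48.2), Ppargc1a of 1.74 (0.609 to 3.23) and Irs2 of 1.47 (0.290 to 4.30). Of the hepatocyte markers, 5 of the 6 hepatocyte markers searched for were in the tables, with none at 0 in any group. In whole liver, fewer cells of a type and less RNA per cell cannot be told apart.

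The genes differed in how far libraries of 1 group lay apart. The spread within groups (SD of log2 CPM over 59 libraries of day 2, without number 64, described below) was 1.35 for Igfbp1 and 0.122 for Fbp1. Pck1 had 0.918, Irs2 0.805, G6pc 0.659, Tat 0.423, Pklr 0.383 and Ppargc1a 0.321. At day 5 Igfbp1 had 0.654 and G6pc had the widest spread of the 8 with 0.830, and at day 28 Igfbp1 had 0.914 and Pck1 0.853. Fbp1 had the narrowest at each day, with 0.197 at day 5 and 0.117 at day 28.

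After 2 days of gavage, 5 of the 8 genes passed the test in females at 200 mg/kg-d, and none passed in the other 7 comparisons of a dose with its vehicle group. Those 5 were Igfbp1, Irs2, Ppargc1a, G6pc and Tat, all higher in dosed livers, and each call ended when a single library, number 64, was left out. Doses were set against vehicle livers of their own sex and day by edgeR's quasi-likelihood test with Benjamini-Hochberg adjustment over all genes and a threshold of 0.05. Of all genes tested, 16.8% passed at 200 mg/kg-d in females. In females at 50 and 100 mg/kg-d, 0% and 0.0396% of genes passed, and in males at 50, 100 and 200 mg/kg-d 0.0634%, 4.70% and 0.0158%. At 300 mg/kg-d, 30% of genes passed in females and 15.1% in males, with none of the 8 among them. Groups did not overlap in 0.277%, 1.47%, 2.77% and 14.7% of genes in females at 50, 100, 200 and 300 mg/kg-d, and in 0.515%, 2.36%, 0.673% and 5.05% in males. Over the 64 member tests of day 2, 7 had an unadjusted p under 0.05, while the comparisons had 520 to 5129 such genes each.

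**Figure D1:**
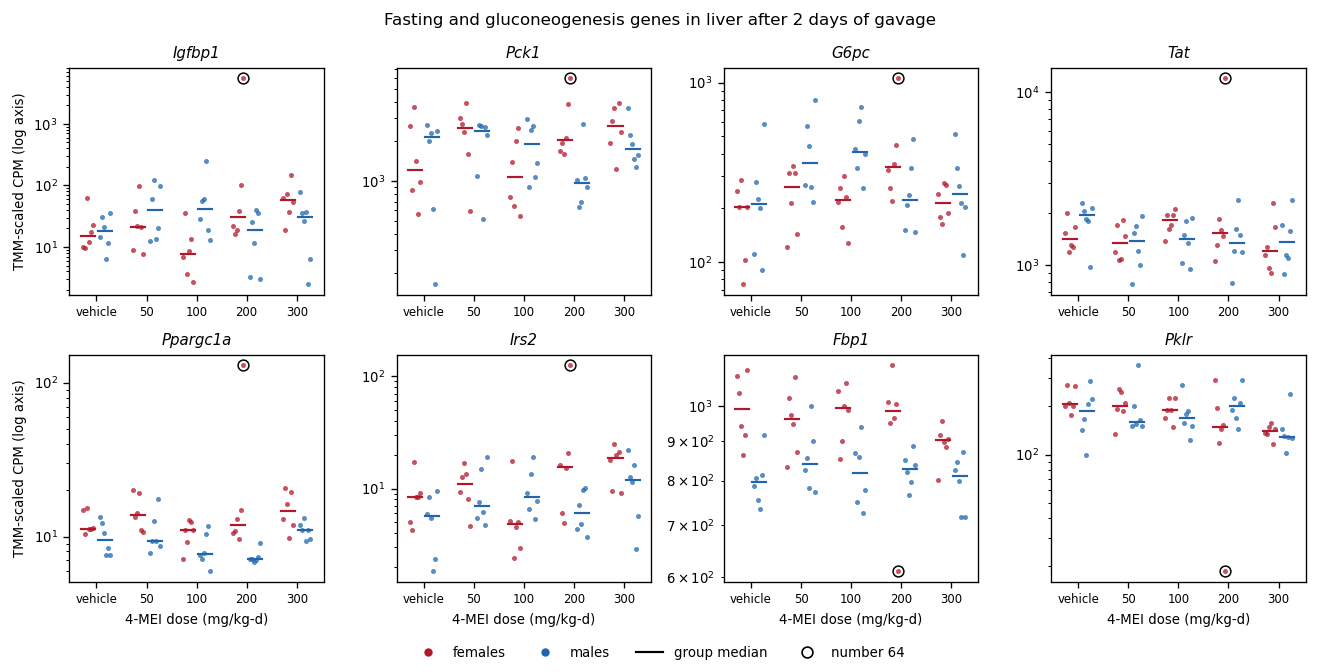
Level of each of the 8 genes in every day 2 liver, in TMM-scaled CPM on a log axis, by dose in mg/kg-d from vehicle upward, with females in red left of males in blue. Points are libraries, bars are medians of the 6 libraries, and the ringed point is number 64 at 200 mg/kg-d. Number 64 is the highest of the 60 libraries for 6 genes and the lowest for Fbp1 and Pklr, and among dosed groups only Pklr in females at 300 mg/kg-d is clear of its vehicle group.

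Igfbp1 covered the widest range at day 2. In females its lowest, median and highest levels were 9.45, 14.9 and 61.4 CPM in vehicle livers, 7.76, 21.4 and 97.3 CPM at 50 mg/kg-d, 2.67, 7.71 and 36.1 CPM at 100, 16.3, 30.6 and 5584 CPM at 200, and 19.1, 58.2 and 146.7 CPM at 300. In males they were 6.31, 17.9 and 35.4 CPM in vehicle livers, 12.3, 40.2 and 121.1 CPM at 50 mg/kg-d, 12.97, 41.5 and 247.9 CPM at 100, 3.03, 18.7 and 39.8 CPM at 200, and 2.48, 31.2 and 78.9 CPM at 300. All dosed groups overlapped the vehicle group of their sex. At 300 mg/kg-d the log2 fold change was 1.54 (SE 0.99, adjusted p = 0.241) in females and 0.64 (SE 0.99, adjusted p = 0.699) in males.

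Irs2, the adapter of the insulin receptor, also spread widely. In females its lowest, median and highest levels were 4.27, 8.43 and 17.4 CPM in vehicle livers, 4.64, 11.03 and 16.8 CPM at 50 mg/kg-d, 2.43, 4.80 and 17.7 CPM at 100, 4.96, 15.6 and 125.9 CPM at 200, and 9.21, 18.8 and 24.9 CPM at 300. In males they were 1.83, 5.71 and 9.55 CPM in vehicle livers, 4.76, 6.94 and 19.1 CPM at 50 mg/kg-d, 5.38, 8.42 and 19.1 CPM at 100, 3.74, 6.02 and 10.04 CPM at 200, and 2.90, 11.97 and 22.2 CPM at 300. At 300 mg/kg-d, 6 of 6 female livers and 5 of 6 male livers lay above the vehicle mean, and the groups overlapped in both sexes. The log2 fold change at 300 mg/kg-d was 0.95 (SE 0.53, adjusted p = 0.174) in females and 1.07 (SE 0.57, adjusted p = 0.193) in males.

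Pklr, the gene of the fed state, was the one member with a dosed group clear of its vehicle group. At 300 mg/kg-d females had a lowest, median and highest level of 116.6, 140.1 and 156.9 CPM, against 175.6, 206.1 and 271.7 CPM in vehicle females. All 6 dosed females were below all 6 vehicle females, as in 14.7% of all genes tested in that comparison. The log2 fold change was -0.67 (SE 0.29), with an adjusted p of 0.0713, and -0.68 with an adjusted p of 0.0144 when number 64 of the 200 mg/kg-d group was left out of the shared fit, in which 35.8% of genes passed. In males at 300 mg/kg-d the levels were 102.9, 129.7 and 238.5 CPM, against 98.8, 187.6 and 288.6 CPM in vehicle males, and the log2 fold change was -0.37 (SE 0.29, adjusted p = 0.404).

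An average over both sexes at 300 mg/kg-d, added after the data were seen, placed Irs2 and Pklr past the threshold. Irs2 rose, with a log2 fold change of 1.01 (SE 0.39, adjusted p = 0.0322), and Pklr fell, with -0.52 (SE 0.20, adjusted p = 0.0356). In this contrast 41.6% of all genes passed, which is a larger share than 2 of 8. Without number 64 the adjusted p was 0.00823 for Irs2 and 0.00521 for Pklr, with 46.4% of genes past the threshold. Leaving out 1 library ended the Irs2 call for females 75 at 300 mg/kg-d, 9 and 10 in vehicle, and for males 65 at 300 mg/kg-d, 6 and 7 in vehicle (adjusted p 0.0524 to 0.0783). With no filter on low counts Pklr had an adjusted p of 0.0611. Leaving out 1 library ended its call for females 77 at 300 mg/kg-d, 10 and 15 in vehicle, and for males 67 and 68 at 300 mg/kg-d, 6 and 7 in vehicle (adjusted p 0.0510 to 0.0799).

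The gluconeogenic enzymes did not pass the test at 300 mg/kg-d. Pck1 had a lowest, median and highest level of 1246, 2608 and 3919 CPM in females at 300 mg/kg-d, against 566.8, 1207 and 3656 CPM in vehicle females, and 1280, 1750.0 and 3605 CPM in males, against 165.7, 2154 and 2644 CPM in vehicle males. Its log2 fold change was 0.66 (SE 0.50, adjusted p = 0.332) in females and 0.25 (SE 0.49, adjusted p = 0.766) in males. Fbp1 had 801.4, 902.5 and 956.8 CPM in females at 300 mg/kg-d, against 862.6, 991.1 and 1115 CPM in vehicle females. Its fold change there was -0.15 on the log2 scale (SE 0.09, adjusted p = 0.186). G6pc had 162.3, 213.0 and 275.2 CPM in females at 300 mg/kg-d, against 74.9, 202.5 and 284.5 CPM in vehicle females. In males G6pc was highest at 100 mg/kg-d, with 257.6, 411.0 and 732.4 CPM, against 90.3, 210.7 and 583.3 CPM in vehicle males, where all 6 dosed livers lay above the vehicle mean (log2 fold change 0.89, SE 0.40, adjusted p = 0.202).

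Tat and Ppargc1a, which respond to glucocorticoids and glucagon, likewise overlapped their vehicle groups at 300 mg/kg-d. Tat had 894.9, 1205 and 2289 CPM in females at 300 mg/kg-d, against 1191, 1417 and 1993 CPM in vehicle females. Ppargc1a had 9.73, 14.6 and 20.7 CPM in females at 300 mg/kg-d, against 10.4, 11.2 and 15.2 CPM in vehicle females. The log2 fold change was -0.12 (SE 0.36) for Tat and 0.30 (SE 0.36) for Ppargc1a in females, and -0.34 (SE 0.36) for Tat and 0.15 (SE 0.38) for Ppargc1a in males. The median log2 fold change of the 8 genes at 300 mg/kg-d was 0.26 in females and 0.15 in males, beside -0.02 and 0.00 over all genes tested.

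**Figure D2:**
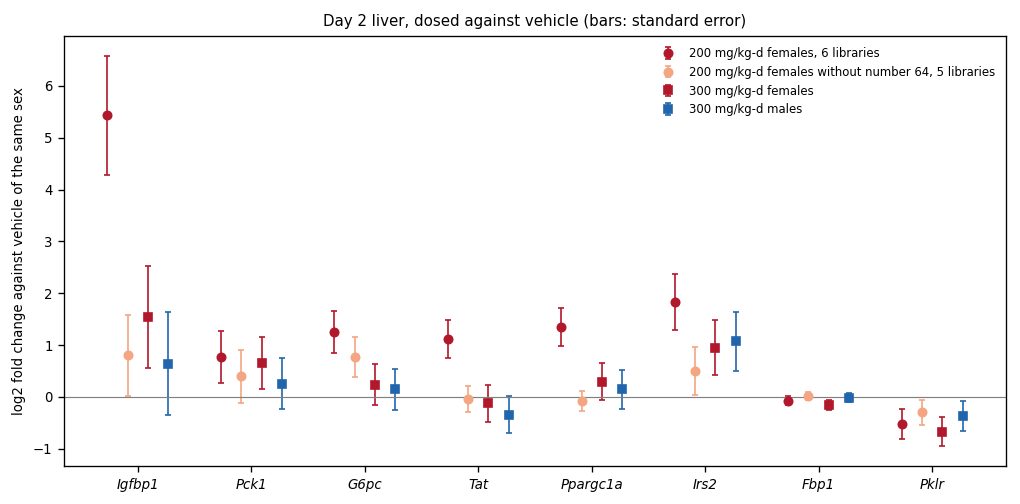
Log2 fold change against vehicle of the same sex for each of the 8 genes at day 2, with standard errors as bars. Shown are females at 200 mg/kg-d with all 6 libraries and without number 64, and both sexes at 300 mg/kg-d. Without number 64 the Igfbp1 value at 200 mg/kg-d is 0.80 in place of 5.43, and those of Tat and Ppargc1a are near 0.

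Library number 64, a female liver at 200 mg/kg-d, lay outside the range of the other 5 livers of its group for all 8 genes. Igfbp1 reached 5584 CPM in number 64, against 16.3 to 100.4 CPM in the other 5 livers of its group, which is 253.6 times their median. Ppargc1a stood at 130.3 CPM against 9.67 to 14.9 CPM (11.95 times the median), and Irs2 at 125.9 CPM against 4.96 to 20.6 CPM (8.33 times). Tat reached 12132 CPM, against 1056 to 1856 CPM (8.21 times). The coactivator, the adapter and the glucocorticoid-responsive aminotransferase were thus each above 8 times the median of the other 5.

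Of the enzymes, G6pc had 1061 CPM in number 64, against 217.7 to 447.2 CPM in the other 5 (3.25 times the median), and Pck1 6036 CPM, against 1596 to 3814 CPM (3.10 times). These 6 genes were higher in number 64 than in any of the other 59 livers of day 2. Fbp1 and Pklr were the lowest of the 60, with 610.0 CPM of Fbp1 against 949.3 to 1130.4 CPM and 18.6 CPM of Pklr against 117.9 to 294.8 CPM, which is 0.607 and 0.122 times the median. Fbp1, an enzyme of gluconeogenesis, thus lay on the same side as the glycolytic enzyme and opposite to Pck1 and G6pc.

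Number 64 departed across the transcriptome. Of 12627 genes, 34.8% lay above and 37.6% below the range of the other 5 livers, and 2487 genes did so by more than 2-fold from their median, against 65 to 167 genes for each of the other 5 taken in turn. The range each of those 5 was set against included number 64, which widens it and lowers their counts. Its total of 11420027 counts was inside the range of the other 5, 10570562 to 12092097. With number 64 in the fit, the log2 fold change in females at 200 mg/kg-d was 5.43 for Igfbp1 (SE 1.15, adjusted p = 0.0017), 1.83 for Irs2 (SE 0.54, adjusted p = 0.0157), 1.35 for Ppargc1a (SE 0.37, adjusted p = 0.0092), 1.25 for G6pc (SE 0.40, adjusted p = 0.0261) and 1.12 for Tat (SE 0.36, adjusted p = 0.0270). Only 3 of 6 dosed livers were above the vehicle mean for Igfbp1, Ppargc1a and Tat, 4 of 6 for Irs2 and 6 of 6 for G6pc, and no gene's groups were clear of each other.

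Without number 64, 0.0710% of genes passed in females at 100 mg/kg-d and 0% at 50. The comparison of females at 200 mg/kg-d then had 546 genes past the threshold, 4.31% of 12676, and none of the 8. The log2 fold change was then 0.80 for Igfbp1 (adjusted p = 0.618), 0.77 for G6pc (adjusted p = 0.259), 0.50 for Irs2, -0.04 for Tat, -0.08 for Ppargc1a and -0.30 for Pklr. Fitted on the 2 groups alone, with number 64 kept, 3 genes passed and none of the 8. With number 64 kept in the shared fit, the G6pc call also ended without vehicle female 12 (adjusted p = 0.0685) or 14 (adjusted p = 0.062), and the Tat call without vehicle female 11 (adjusted p = 0.0542), 12 (adjusted p = 0.0523) or 14 (adjusted p = 0.0517), or with the place of the number, described below, as a covariate (adjusted p = 0.0663). Pklr passed as lower without female 57 (log2 fold change -0.82, adjusted p = 0.0416).

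The wider fasting network in number 64 is described from lists of genes that hold none of the 8. Counts in this and the next paragraph stand beside 34.8% of all genes above and 37.6% below the other 5 livers. No list was tested against these shares. All 10 glucocorticoid-responsive genes lay above the range of the other 5 livers, among them Sgk1, a kinase, at 626.0 CPM against 16.8 to 25.8 CPM, and Mt2, a metallothionein, at 1271 CPM against 21.05 to 181.8 CPM. Of 16 fasting-induced genes of fat use and growth arrest, 9 lay above and 4 below. Cdkn1a, an inhibitor of the cell cycle, had 219.4 CPM against 1.10 to 4.57 CPM, Ddit4, an inhibitor of mTORC1 signalling, 588.4 CPM against 4.31 to 7.24 CPM, and Lpin1, a phosphatidate phosphatase, 2757 CPM against 55.2 to 374.6 CPM. Of 18 transcription factors of the fasting response, 10 lay above and 7 below, with the orphan receptor Nr4a1 at 36.9 CPM against 0.424 to 1.39 CPM.

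Of the 16 further genes of gluconeogenesis and amino acid entry, 9 lay above and 3 below, and of 16 genes of glycolysis and glucose uptake 4 lay above and 8 below. Of 12 lipogenic genes of the fed state 2 lay above and 10 below. The genes named next were chosen after their values were seen. Got1, the cytosolic aspartate aminotransferase, had 5715 CPM in number 64 against 253.5 to 401.9 CPM in the other 5 livers. Fgf21, a hormone of fasting, had 0 counts in number 64 against 1.52 to 7.62 CPM. Beside them, 3 of 4 neutrophil markers lay above and 4 of 4 B cell markers below the other 5 livers. Of those B cell markers, 1 passed the filter on low counts in the fit of all day 2 livers. Below lay 3 of 5 markers for hepatocytes, 3 of 6 for Kupffer cells and 2 of 3 for T cells, with 1, 1 and 0 above. Sinusoidal endothelium and stellate cells each had 2 above and 2 below. Over all genes tested, 34.8% lay above and 37.6% below. The part of other cells in the result was not tested.

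**Figure D3:**
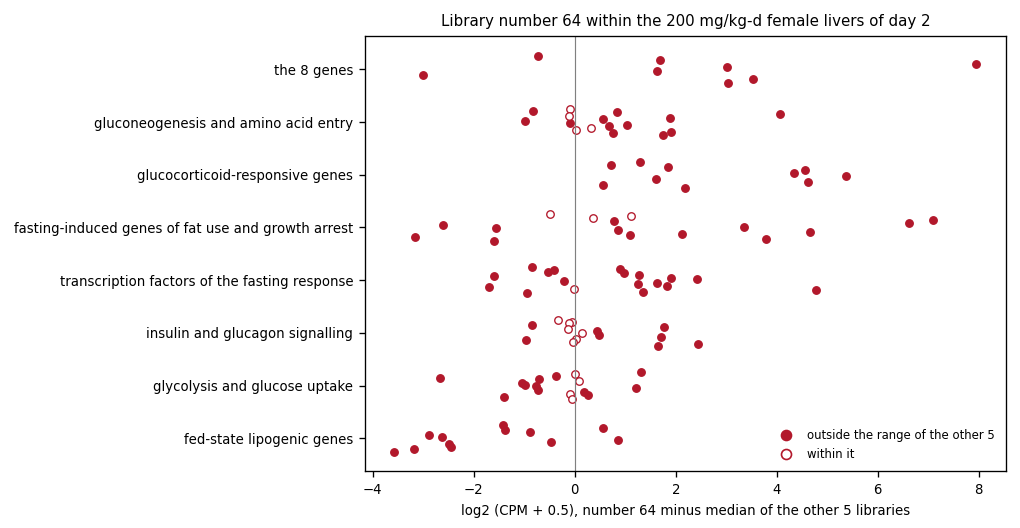
Library number 64 against the median of the other 5 female livers at 200 mg/kg-d, as the difference of log2(CPM + 0.5), for the 8 genes and for the genes of each list. Each point is a gene, filled where number 64 is outside the range of the other 5. The 10 glucocorticoid-responsive genes are all on the right, and 10 of 12 lipogenic genes are on the left.

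At 300 mg/kg-d in the other livers, the lists that hold none of the 8 gave a count for the pathway as a whole. These counts are to be read beside the shares of all genes that passed, given after the last list. Of 15 further genes of gluconeogenesis and amino acid entry tested in females, 7 rose and 1 fell, and in males 1 rose and 1 fell. Pyruvate carboxylase Pcx rose in both sexes, by 0.47 in females (adjusted p = 0.000138) and 0.28 in males (adjusted p = 0.0331) on the log2 scale. Alanine aminotransferase Gpt fell in both, by 0.28 in females and by 0.37 in males. Slc37a4, the glucose-6-phosphate transporter that works with G6pc, rose by 0.55 in females (adjusted p = 0.00131) and had -0.05 in males. Tdo2, which opens tryptophan breakdown, rose by 0.66 in females and had 0.13 in males.

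Of 15 genes of glycolysis and glucose uptake, 4 fell and none rose in each sex. Mlxipl, the carbohydrate-response factor ChREBP that drives Pklr, fell by 0.59 in females and by 0.40 in males. Of the 12 lipogenic genes 9 fell in females and 5 in males, with a median log2 fold change of -1.24 in females and -1.07 in males. Thrsp fell by 1.90 in females and by 1.74 in males, and Srebf1, the insulin-driven lipogenic factor, by 1.09 in females and by 1.07 in males.

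Of 15 genes of insulin and glucagon signalling, 2 rose and 3 fell in females, and 3 rose and 2 fell in males. The insulin receptor Insr rose by 0.50 in females and 0.44 in males, and the glucagon receptor Gcgr fell by 0.41 in females and by 0.27 in males. Of 18 transcription factors of the fasting response, 3 rose and none fell in females, and 2 rose and 1 fell in males. Creb1 rose by 0.41 in females and 0.39 in males, and the glucocorticoid receptor Nr3c1 by 0.34 in females and 0.25 in males. Of 10 glucocorticoid-responsive genes, 4 rose in females and none passed in males. Fkbp5, a co-chaperone of that receptor, rose by 2.01 in females (adjusted p = 6.9e-05) and had 1.01 in males (adjusted p = 0.0503). Of 16 fasting-induced genes 6 rose and 1 fell in females and 1 rose in males, where Acot1, an acyl-CoA thioesterase, rose by 1.38 in females and 1.37 in males. The counts of all these lists stand beside the 30% and 15.1% of all genes that passed. Without number 64 in the shared fit, 8 of 15 genes of gluconeogenesis and amino acid entry rose in females and 2 fell. In that fit 11 of 12 lipogenic genes fell, 5 of 18 transcription factors rose, and 7 of 16 fasting-induced genes rose and 1 fell. The female counts of the other lists named here stayed the same, and a larger share of all genes passed, as given for Pklr.

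Markers of other cells and signs of RNA quality moved at this dose too. Averaged over both sexes at 300 mg/kg-d, 5 of 5 markers of sinusoidal endothelium rose, with a median log2 fold change of 0.33. In that contrast 5256 of 12627 genes passed the threshold in either direction. The summed level of those 5 markers was 242.9 to 299.5 CPM in females at 300 mg/kg-d, against 192.9 to 233.1 CPM in vehicle females, and 205.2 to 284.9 CPM in males, against 164.8 to 219.3 CPM in vehicle males. The groups of females did not overlap in this sum, and those of males did. In the same average of both sexes, 2 of 5 hepatocyte markers rose and 1 fell. Of the markers tested, 1 of 6 for Kupffer cells and 1 of 5 for cholangiocytes fell. Only 1 of 4 markers of pancreatic acinar cells was tested, and it fell. For stellate cells 1 of 5 rose, and for neutrophils 1 of 3. Of 4 adipocyte markers 1 was tested, Cidec, a lipid droplet protein, and it rose by 1.32 (adjusted p = 0.000241). With 1 marker tested, adipocytes cannot be told apart from other cells that express it. Of the nuclear RNAs, Neat1 fell by 1.29 (adjusted p = 1.07e-05) and Malat1 had 0.03. Over 12200 genes with a known length, the fold change at 300 mg/kg-d had a Spearman correlation with transcript length of 0.39 in females and 0.44 in males, given as a description across genes of the same libraries. Such a correlation was not particular to this dose. In feed at day 5 it was 0.41 and 0.42 in males at 300 and 1250 ppm, and -0.33 in females at 1250 ppm. The part of these markers and signs in the list counts was not tested.

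In feed, none of the 8 genes passed the test at any dose, sex or day. At day 5, 0%, 0%, 0.0312% and 0.0545% of genes passed in females at 150, 300, 1250 and 2500 ppm, and 0%, 0.0390%, 0.101% and 0.405% in males. Groups did not overlap in 0.148%, 0.0390%, 0.109% and 0.273% of genes in females and 0.109%, 0.436%, 0.444% and 0.880% in males. For the 8 genes all groups overlapped, and 2 of 64 member tests had an unadjusted p under 0.05, both of G6pc at 2500 ppm. At day 28, 0%, 0%, 0.0387% and 1.16% of genes passed in females and 0.108%, 0.0155%, 0.163% and 0.0775% in males. Groups did not overlap in 0.294%, 0.287%, 0.504% and 1.59% of genes in females and 0.783%, 0.232%, 0.604% and 0.256% in males, again with none of the 8 among them, and 6 of 64 member tests had an unadjusted p under 0.05. Per comparison, 215 to 1130 of all genes had such a p at day 5 and 403 to 1979 at day 28.

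At day 5 G6pc had the largest difference. In females at 2500 ppm its lowest, median and highest levels were 27.6, 107.5 and 138.97 CPM, against 62.9, 179.9 and 323.4 CPM in vehicle females. In males they were 56.1, 107.5 and 179.5 CPM, against 112.8, 203.9 and 462.5 CPM in vehicle males. All 6 dosed livers of each sex lay below the mean of their vehicle group, and the groups overlapped. The log2 fold change was -1.07 (SE 0.46) in females with an adjusted p of 0.837, and -1.07 (SE 0.46) in males with an adjusted p of 0.467. Averaged over both sexes, a contrast added after the data were seen, it was -1.07 (SE 0.33, adjusted p = 0.130), with 0.608% of genes past the threshold. Pck1 at 2500 ppm had 1699, 1960.1 and 3396 CPM in females, against 830.2, 1277 and 2840.0 CPM in vehicle females (log2 fold change 0.36, SE 0.41). Dosed and vehicle livers did not fill the same places in their blocks of library numbers, described below, and both genes moved with place at this day. Fold changes of G6pc, and of Pck1 in females, with place as a covariate are not given here.

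At day 28 Fbp1 and Pklr came closest to the threshold. Fbp1 in females at 2500 ppm had a lowest, median and highest level of 781.4, 809.7 and 987.3 CPM, against 904.0, 955.0 and 1118 CPM in vehicle females, with 5 of 6 dosed livers below the vehicle mean (log2 fold change -0.20, SE 0.07, adjusted p = 0.145). In males Fbp1 had 691.4, 717.8 and 805.8 CPM at 2500 ppm, against 686.2, 805.1 and 935.7 CPM in vehicle males. Averaged over both sexes the log2 fold change of Fbp1 was -0.17 (SE 0.05, adjusted p = 0.052), beside 1.48% of genes past the threshold. It passed when 1 library was left out, for females 240 at 2500 ppm, 170 and 172 in vehicle, and for males 230 at 2500 ppm, 161, 162 and 164 in vehicle (adjusted p 0.0185 to 0.0499). Without female 240 Fbp1 also passed in females alone (log2 fold change -0.26, adjusted p = 0.0467). Pklr in males had 96.7, 121.3 and 201.0 CPM at 1250 ppm, against 114.02, 243.4 and 364.2 CPM in vehicle males (log2 fold change -0.87, adjusted p = 0.135).

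Igfbp1 at 2500 ppm and day 28 had 14, 38.6 and 91.9 CPM in females, against 11.1, 30.8 and 52.1 CPM in vehicle females, and 19.3, 31.8 and 42.4 CPM in males, against 4.4, 11.2 and 73.6 CPM in vehicle males. Its log2 fold change was 0.60 (SE 0.51) in females and 0.62 (SE 0.52) in males, with adjusted p of 0.633 and 0.787. Pck1 reached its lowest level of day 28, 95.1 CPM, in male number 194 at 300 ppm, where the other 5 livers of that group had 956.8 to 2189 CPM.

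**Figure D4:**
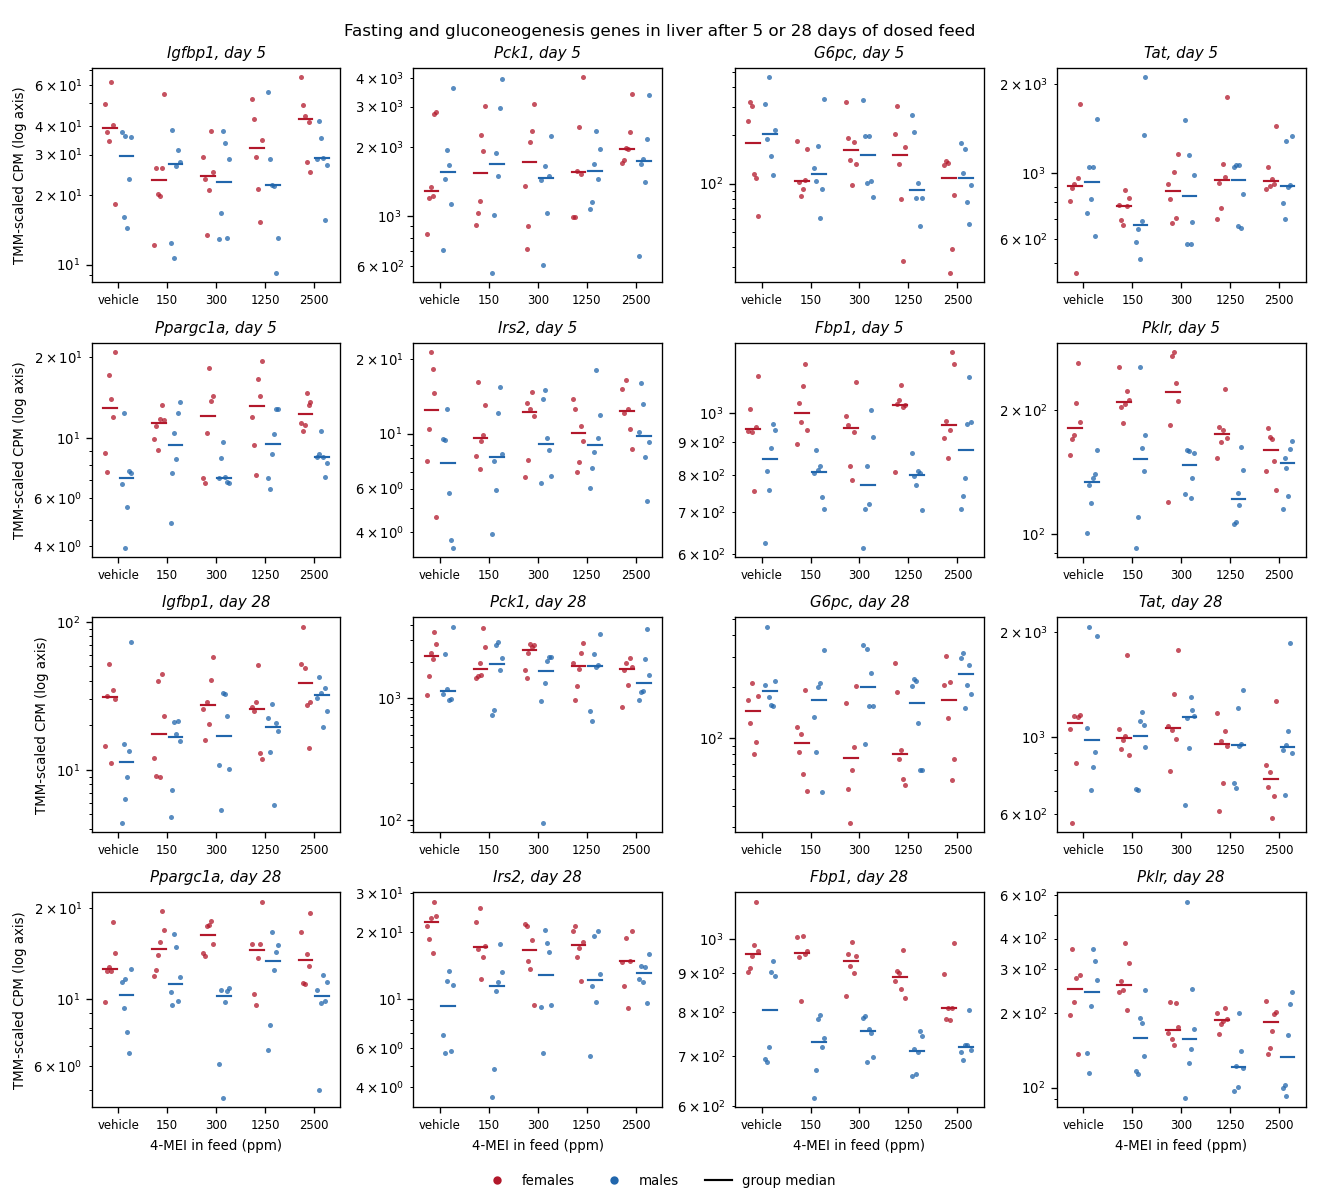
Level of each of the 8 genes in every liver after 5 days (upper 2 rows of panels) and 28 days (lower 2 rows), in TMM-scaled CPM on a log axis, by ppm of 4-MEI in feed from vehicle upward, with females in red left of males in blue. Points are libraries and bars are medians of 6. Dosed groups overlap vehicle groups for every gene, and G6pc at 2500 ppm and day 5 has medians of 107.5 CPM in both sexes.

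Part of the spread within groups went with the library number. Numbers ran in blocks of 8 for each dose and sex, and the place of a number in its block, 1 to 8, was fitted as a term beside the 10 groups after the data were seen. The labels do not say what the order stands for. At day 5 the place passed the test for 6 of the 8 genes, and for 31.7% of all genes. Pck1 rose by 0.25 per place on the log2 scale (SE 0.02, adjusted p = 7.48e-13). Its lowest, median and highest levels were 563.6, 986.0 and 1430 CPM in the 7 livers at place 1, and 3024, 3396 and 4024 CPM in the 7 livers at place 8, with no overlap.

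G6pc moved the other way at day 5, by -0.16 per place (SE 0.04, adjusted p = 0.00105), with a median of 268.8 CPM at place 1 and 72.8 CPM at place 7, although place 8 had 165.6 CPM. Tat rose by 0.08 per place, Ppargc1a by 0.09, Fbp1 by 0.04 and Pklr by 0.05, while Igfbp1 (-0.03) and Irs2 (-0.02) did not pass. At day 28 the same 6 genes passed in the same directions, beside 36.1% of all genes, with 0.20 per place for Pck1 (adjusted p = 2.9e-05) and -0.12 for G6pc (adjusted p = 0.0295). At day 2, Tat passed with 0.12 per place (adjusted p = 0.0199) beside 7.52% of genes, and none of the 8 passed without number 64, beside 7.08% of genes.

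The circadian clock genes moved with the same order. At day 5, 6 of 11 clock genes rose and 4 fell with place, and at day 28 7 rose and 4 fell. Arntl, which encodes the clock activator BMAL1, had -0.80 per place at day 5, -0.75 at day 28 and 0.32 at day 2, and Dbp, an output gene of the clock, 0.41, 0.34 and -0.42. The part of the hour or of any other factor in the order of the 8 genes was not tested. With place in the model as a covariate, the 8 genes again gave no call at 2500 ppm at day 5 or day 28.

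**Figure D5:**
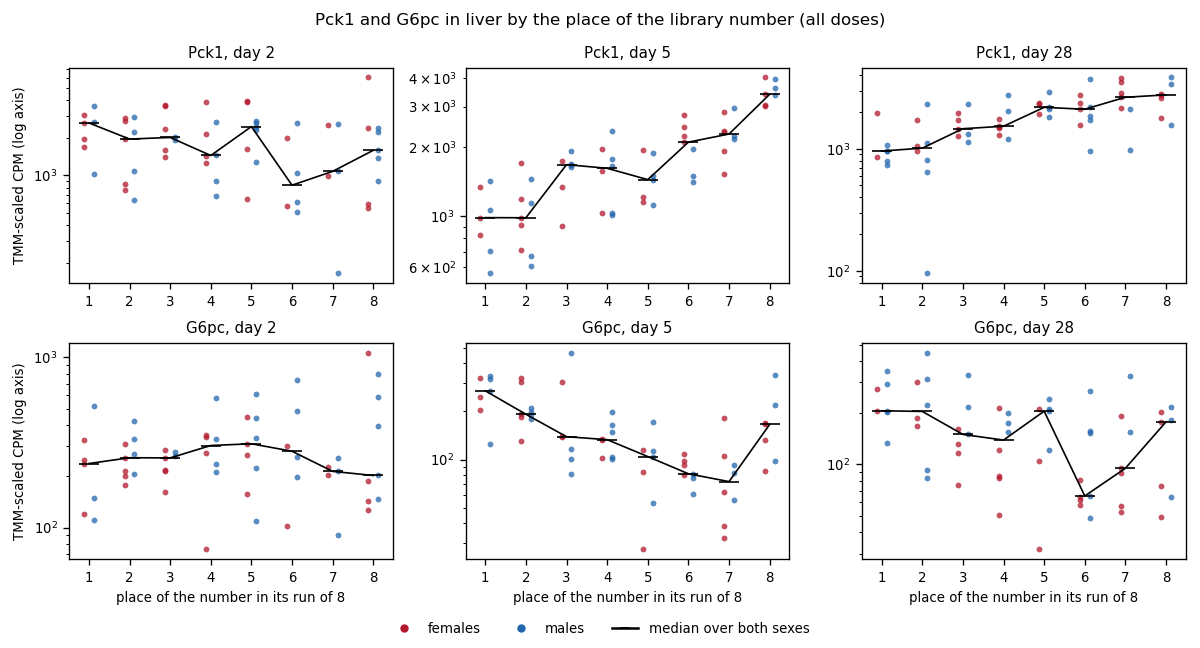
Pck1 (upper panels) and G6pc (lower panels) in every liver of day 2, 5 and 28 by the place of the library number in its block of 8, in TMM-scaled CPM on a log axis, with females in red left of males in blue and the black line at the median over both sexes. At day 5 Pck1 has a median of 986.0 CPM at place 1 and 3396 CPM at place 8, and at day 2 no such order passes the test.

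The sexes differed for some of the genes before any 4-MEI. In vehicle livers of day 28 Irs2 had a lowest, median and highest level of 16.1, 22.1 and 27.2 CPM in females, against 5.70, 9.23 and 13.4 CPM in males, with no overlap (log2 difference female minus male 1.22, adjusted p = 0.00137). Fbp1 was higher in vehicle females at day 2 (0.31, adjusted p = 0.0128) and at day 28 (0.27, adjusted p = 0.00282). Ppargc1a (0.88, adjusted p = 0.00568) and Pklr (0.55, adjusted p = 0.0105) were higher in vehicle females at day 5. Of all genes, 13.7% passed this comparison at day 2, 18.2% at day 5 and 22.2% at day 28.

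Averaged over all 5 doses, a contrast added after the data were seen, Ppargc1a and Fbp1 were higher in females at each of the 3 days. Ppargc1a differed by 0.72 at day 2, 0.54 at day 5 and 0.47 at day 28 on the log2 scale, and Fbp1 by 0.22, 0.27 and 0.31. The day 2 values include number 64 among the females at 200 mg/kg-d. It had 130.3 CPM of Ppargc1a against 9.67 to 14.9 CPM in the other 5, and 610.0 CPM of Fbp1 against 949.3 to 1130.4 CPM. Day 2 values without number 64 are not given here, so the 3 days are not compared in size. At day 5 Pklr was also higher in females (0.44, adjusted p = 5.69e-07). At day 28 G6pc was lower in females (-0.67, adjusted p = 0.00471), and Igfbp1 (0.58) and Irs2 (0.60) were higher. Of all genes, 50.8%, 47% and 54.7% passed at day 2, 5 and 28. No member's effect of the highest dose passed a test of the difference between sexes at any of the 3 days, beside 0.00792%, 0% and 0.0387% of genes. At an unadjusted p under 0.05 the test of all genes gave 581, 521 and 867 genes.

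Within groups, some pairs of the genes had related levels. For each pair, deviations of log2 CPM from the group mean were correlated over the 60 livers of a day, with 100000 permutations within groups and adjustment over the 28 pairs of the day. At day 2, 13 of 28 pairs passed by Spearman's rho, 11 of them positive, and without number 64 8 pairs passed, all positive. At day 5, 11 pairs passed, 7 of them positive, and at day 28, 7 pairs passed, all positive. With the place of the number removed, 16 pairs passed at day 2, 12 of them positive, 8 at day 5, 6 of them positive, and 7 at day 28, all positive. The share among pairs of other genes was not computed. Igfbp1 and Irs2 had the closest relation at day 2, with rho = 0.849 and Pearson's r = 0.882 (adjusted permutation p = 4.7e-05 for both). Their r was 0.835 without the 2 livers farthest from the median, and their rho was 0.829 without number 64. The same pair had rho = 0.396 (adjusted permutation p = 0.0190) and r = 0.370 at day 5, and rho = 0.370 (adjusted permutation p = 0.0390) and r = 0.379 at day 28.

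Igfbp1 and G6pc had rho = 0.739 and r = 0.742 at day 2, rho = 0.390 and r = 0.419 at day 5, and rho = 0.403 and r = 0.385 at day 28 (adjusted permutation p of rho 4.7e-05, 0.0195 and 0.0200). Pck1 and Ppargc1a had rho = 0.568, 0.503 and 0.588 and r = 0.466, 0.505 and 0.414 at day 2, 5 and 28. Once place was removed from the deviations, their rho at day 5 was 0.161 and no longer passed.

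Pck1 and G6pc, the enzyme that makes phosphoenolpyruvate and the one that releases free glucose, had rho = 0.562 and r = 0.563 at day 2 (adjusted permutation p of rho 0.00012). At day 5 they had rho = -0.274 and r = -0.224, and at day 28 rho = -0.009 and r = 0.072, which did not pass. With place removed, rho was 0.426 at day 5 (adjusted permutation p = 0.0132) and 0.391 at day 28 (adjusted permutation p = 0.0189), and r was 0.460 and 0.406. Pck1 and Tat had rho = 0.613 at day 5 and 0.668 at day 28, with r = 0.645 and 0.541, and at day 2 rho = 0.282, which did not pass.

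Among all 12627 genes of day 2, those whose deviations within groups followed a member most closely were named for 3 members as a description over the 60 livers, which share dose groups and scaling. For Igfbp1 they were Ip6k2 (rho = 0.826), Nfkbia (0.768) and Lpin2 (0.761), for Pck1 Klhl21 (0.840), Mbtd1 (0.821) and Slc7a2 (0.820), and for Ppargc1a Adcy9 (0.802), Slc7a2 (0.780) and Fam134b (0.775). Over the 59 livers without number 64 the 3 closest were Ip6k2, Zfp740 and Lpin2 for Igfbp1, and Adcy9, Slc7a2 and Cdk19 for Ppargc1a.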

How the data were processed

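RNA of 180 liver libraries was made into libraries with a stranded mRNA kit, per the labels' protocols. The submitters' processing notes name Trimmomatic, Bowtie2, SAMtools, HTSeq and the build mm10; the sources used here do not give versions, annotation or strand setting. The deposited tables hold raw whole-number counts per gene symbol, as made by the authors. Groups were taken from the titles, since the characteristics of day 28 contradict them in 8 of 10 groups.

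Each day was fitted as 10 groups with edgeR 4.0.16 in R 4.3.3: a filter on low counts (filterByExpr), TMM scaling and the robust quasi-likelihood test, with Benjamini-Hochberg adjustment over all genes of a contrast and a threshold of 0.05. The standard error is the log2 fold change divided by the root of F. The pipeline was tested on simulated data. Pairs of libraries within groups were compared for duplicates, and 0 of 150 per day were identical. Nothing in the labels says that libraries came from separate animals, so p-values measure the spread between these libraries, which may be partly technical. Correlations used SciPy 1.17.1 and NumPy 2.4.6. Alternatives were DESeq2 1.42.0, RLE size factors, no filter, only the groups compared, the place of the number as a covariate, and leaving out each library. Promoters came from the RefSeq table of GRCm38.p6, and the files' loci from GRCm38.

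The 8 genes and the pathway lists were chosen with earlier results of these data known. The text names all 8 genes, the 3 genes most alike to Igfbp1, Pck1 and Ppargc1a by rho, up to 4 genes per list past the threshold at 300 mg/kg-d (in both sexes first) or at 2500 ppm, and the 6 list genes farthest from the other 5 livers in number 64; other genes are marked as chosen after their values were seen. Lung data enter for number 64 alone. A few genes of the lists and of the closest patterns are not reported here.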

Additional observations from a re-analysis of the deposited data

Results flagged for a closer look

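For each of the 8 genes and 30 liver groups, the highest and lowest library were compared with their neighbours by Dixon's criterion for 6 samples. Of the 240 combinations of a gene and a group, 18 held a library past the criterion. Chance alone gives about 1 in 20 if the combinations are independent. Here 5 of the 18 were number 64, singled out from the start, and the 8 genes share libraries. The count was therefore not tested against chance. In number 64, Igfbp1 (5584 CPM), Tat (12132 CPM) and Ppargc1a (130.3 CPM) stood far above the other 5 female livers at 200 mg/kg-d, and Fbp1 (610.0 CPM) and Pklr (18.6 CPM) far below them. The other flagged livers of day 2 stood apart for 1 gene each. Pck1 had 2719 CPM in male number 53 at 200 mg/kg-d, against 634.0 to 1053 CPM in the rest of its group. Ppargc1a had 9.09 CPM in male number 56 of the same group, and Pklr 363.7 CPM in male number 22 at 50 mg/kg-d, each the highest of its group. Irs2 was highest of its group in female number 43 at 100 mg/kg-d, with 17.7 CPM. Tat was lowest of its group in vehicle male number 7, with 976.2 CPM against 1789 to 2299 CPM in the rest.

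In feed at day 5, Tat was highest of its group in female number 160 at 2500 ppm, with 1452 CPM. Fbp1 was lowest of its group in 1 female at 1250 ppm, with 808.0 CPM. At day 28 Pck1 was lowest of its group in male number 194 at 300 ppm, with 95.1 CPM. G6pc was highest of its group in vehicle male number 162, with 445.6 CPM, and Tat in female number 191 at 150 ppm, with 1722 CPM. Ppargc1a was lowest of its group in male number 226 at 2500 ppm, with 5.00 CPM. Fbp1 was lowest of its group in female number 189 at 150 ppm, with 827.1 CPM. It was highest of its group in male number 230 at 2500 ppm, with 805.8 CPM.

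At day 28 and 2500 ppm, Irs2 was below the vehicle mean in all 6 females and above it in all 6 males. The difference of the dose effect, female minus male, was -1.02 on the log2 scale (SE 0.41), with an adjusted p of 0.594 by edgeR's quasi-likelihood test, so it did not pass.

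The lung of number 64, outside the liver comparisons, also stood apart. All 10 glucocorticoid-responsive genes were above the other 5 lungs of its group and above all 6 female vehicle lungs. Of all 15240 genes in lung, 34.2% lay above and 37% below the other 5, and 4 of 4 neutrophil markers lay above and 4 of 4 B cell markers below. Their part in the values was not tested. Tat had 71.9 CPM there, against 0.627 to 2.78 CPM in the other 5 and 0.363 to 4.97 CPM in vehicle lungs. Ppargc1a had 18.8 CPM, against 5.70 to 11 CPM and 5.37 to 9.41 CPM, and Irs2 had 87.0 CPM, against 19.4 to 34.2 CPM and 21.4 to 28.7 CPM. Igfbp1 and G6pc had 0 counts in that lung.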

How the results depend on the processing

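No paired analysis was possible because the groups compared share no title numbers. Of 247 alternatives of the 24 comparisons with vehicle, 239 left the number of the 8 genes past the threshold within 1.5 times. In females at 200 mg/kg-d it was 5, but 0 when fitted on the 2 groups alone and 0 without number 64, and 0 to 6 over all libraries left out. In females at 300 mg/kg-d it was 0, but 1 (Pklr) in both of these settings, with 0 to 1 over libraries left out. The average of both sexes at day 2 gave 2, but 1 with no filter and 0 to 2 over libraries left out. The place term of day 2 gave 1, but 0 without number 64, and the pairs 13, but 8 without it. The vehicle difference between sexes gave 2 at day 5 and at day 28, but 1 with only the groups compared. At day 28 the average of both sexes gave 0, but 1 with RLE size factors. Over libraries left out, males at 100 mg/kg-d gave 0 to 1 (1 without vehicle male 8), females at 2500 ppm and day 28 0 to 1, both sexes at day 28 0 to 1 and the vehicle sex difference of day 5 1 to 3 (1 without vehicle female 94). Some log2 fold changes turned sign near 0. Without number 64, Tat (-0.0388), Ppargc1a (-0.0768) and Fbp1 (0.0169) did so in females at 200 mg/kg-d. With no filter, Fbp1 did in males at 300 mg/kg-d (0.00477). With place as a covariate, Pck1 (-0.191) and Tat (-0.0525) did in males at day 5, and G6pc in females (-0.0458) and Ppargc1a in males (0.00399) at day 28. Over libraries left out, log2 fold changes that turned sign ran as follows. In females at 200 mg/kg-d Tat had -0.0388 to 1.3, Ppargc1a -0.0768 to 1.54 and Fbp1 -0.131 to 0.0169. In males at 300 mg/kg-d G6pc had -0.146 to 0.596 and Fbp1 -0.0456 to 0.0219. At day 5 and 2500 ppm, females had -0.105 to 0.222 for Igfbp1, -0.0381 to 0.351 for Tat, -0.222 to 0.0732 for Ppargc1a and -0.201 to 0.177 for Irs2, and males -0.00295 to 0.255 for Igfbp1, -0.182 to 0.425 for Pck1 and -0.0724 to 0.210 for Tat. At day 28 and 2500 ppm, females had -0.0651 to 0.379 for G6pc and -0.00718 to 0.208 for Ppargc1a, and males -0.329 to 0.440 for Pck1, -0.0322 to 0.377 for G6pc and -0.105 to 0.121 for Ppargc1a. Of all genes, 2119 passed in females at 200 mg/kg-d, but 3 with only the groups compared and 546 without number 64. In other comparisons the count over all genes also moved by over 1.5 times. With DESeq2 it was 18 in place of 5 in females at 100 mg/kg-d and 45 in place of 8 in males at 50 mg/kg-d. In males at 100 mg/kg-d it was 1003 in place of 594 without number 64. At 2500 ppm and day 5 it was 24 in place of 7 in females and 94 in place of 52 in males with DESeq2, and 0 and 29 when fitted on the groups compared. At day 28 it was 239 in place of 150 in females and 23 in place of 10 in males with DESeq2, and 88 and 2 when fitted on the groups compared, and at 1250 ppm in males 202 with DESeq2 and 0 on the groups compared, in place of 21. The cause of these changes was not tested. DESeq2 gave Igfbp1 no adjusted p in females at 200 mg/kg-d.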

Other observations

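Outside the 8 genes, some genes of the fasting lists passed the test in feed. Averaged over both sexes at 2500 ppm and day 28, 3 of 16 fasting-induced genes of fat use and growth arrest rose, beside 1.48% of all genes past the threshold. They were Pdk4, a kinase that restrains pyruvate oxidation (log2 fold change 1.42, adjusted p = 0.0315 by edgeR), Fgf21 (1.35, adjusted p = 0.0443 by edgeR) and Cdkn1a (1.41, adjusted p = 0.0321 by edgeR). Of 12 lipogenic genes, 1 fell, Srebf1 (-0.67, adjusted p = 0.0214 by edgeR). Of 15 genes of insulin and glucagon signalling, 1 fell, Akt1 (-0.24, adjusted p = 0.0378 by edgeR). None of the 15 genes of gluconeogenesis and amino acid entry, 15 of glycolysis and glucose uptake, 18 transcription factors and 10 glucocorticoid-responsive genes passed. At day 5 the same average gave 1 gene of gluconeogenesis and amino acid entry, Oat, which was higher (0.54, adjusted p = 0.0108 by edgeR), and none in the other 6 of these lists, beside 0.608% of all genes. The genes of these averages were chosen after their values were seen. In females alone at 2500 ppm and day 28, where 1.16% of all genes passed, dosed livers had lower Akt1, a kinase of insulin signalling (log2 fold change -0.41, adjusted p = 0.00887 by edgeR), and lower Igfals, the acid-labile subunit that carries IGF in blood (-0.65, adjusted p = 4.03e-05), and higher Cdkn1a (2.31, adjusted p = 0.00775). In males these genes had -0.07, -0.25 and 0.51, and the difference between the sexes is not given here. At day 5 and 2500 ppm, the nuclear RNA Malat1 fell in males by 1.13 (adjusted p = 0.00217) and had -0.22 in females.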
